A study of Drosophila melanogaster with 8 samples.

Results

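Cuticle protein genes were examined in the heads of adult Drosophila melanogaster females, 102 genes of the 11982 that had a probe set naming 1 gene on the arrays. Members were taken by gene symbol alone: 66 genes of the Cpr family, 22 Tweedle (Twdl) genes, 7 larval cuticle protein (Lcp) genes, 3 genes of the Ccp84 group, the ecdysone-dependent genes Edg78E, Edg84A and Edg91, and the adult cuticle protein gene Acp65Aa. Acp1, a further adult cuticle protein gene, shared its probe set with another gene and was not counted. Flies were of the wild-type strain Canton S, were collected within 8 h of eclosion and were then kept for 12 days at 12.5 °C in 14 h of light and 10 h of dark. In these conditions some females arrest egg development and others do not. After dissection, females were assigned by ovary status to the diapause or the non-diapause group. Strain, sex, age, temperature and light were thus common to both groups, no allele or agent was added, and the sole label that differed was the reproductive state. RNA from heads was measured on 8 Affymetrix arrays in 1 colour, 4 for each group. How many heads went into an array is not given, nor whether replicate arrays stem from separate cultures. The p-values thus rest on the spread among the arrays of a group, and that spread may be technical.

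The insect cuticle is a layered extracellular sheet of chitin fibres and proteins that is secreted by the epidermis, the tracheae, the foregut and hindgut, and, over the compound eye, by the cells that form the corneal lens. Most Cpr proteins carry the Rebers-Riddiford sequence, which binds chitin, while Tweedle proteins form a separate insect family with members that shape the body of the larva. Sets of cuticle genes are switched on and off at each moult under the control of ecdysone, and the adult goes on depositing inner cuticle for some days after eclosion. A set of larval, pupal and adult cuticle genes therefore takes turns through life, and several of the groups named here are known mainly from stages before the adult.

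Values are log2 signals from a floor of 2.16 up to 15.7. A probe set at the floor gave no signal above background, and values there have no order. Signals of different probe sets depend on their probes, so the order of genes by signal is not an order of transcript amounts. Correlations between arrays over all probe sets were 0.976 to 0.998 (Pearson's r). Markers of photoreceptors (inaD and trp) were bright on all 8 arrays, with a mean of 12.72 to 13.27, while the 6 measured ovary markers had a mean of 2.18 to 2.24, near the floor. Non-diapause 3 stood apart from the other arrays in its midgut markers, which had a mean of 2.65 there and of 12.28 to 14.0 on the other 7.

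Most probe sets of the family gave no signal or only a trace in these heads, which does not show that their genes are silent. Of the 102 genes, 47 (46.1%) lay within 0.01 of the floor on every array, against 22.5% of all genes measured by their brightest probe set and 34.2% of all probe sets. A further 29 stayed under 3 on every array, so that 76 of 102 gave at most a trace of signal. Only 19 members (18.6%) had a mean of at least 5, against 57.7% of all genes. The remaining 7 lay between, among them Acp65Aa, an adult cuticle gene, at 2.72 to 3.09 in diapause and 2.95 to 3.18 in non-diapause heads.

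Genes with no more than a trace of signal were found in every family. All 3 Ccp84 genes and 6 of the 7 Lcp genes were among the 76 with no more than a trace, and none of either group reached a mean of 5. Edg78E and Edg84A, ecdysone-dependent genes of the pupal cuticle, stood at 2.16 on all 8 arrays. Among Tweedle genes 14 of 22 were at the floor and 3 had a mean of at least 5, with a further 5 under 3. Among Cpr genes 26 of 66 were at the floor, a further 20 stayed under 3 and 16 had a mean of at least 5. The highest signal of the Lcp group was 3.10, for Lcp65Ac on non-diapause 2, and that of the Ccp84 group was 2.55, for Ccp84Ag on diapause 4.

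Many cuticle genes lie side by side in the fly genome, and members with a bright probe set stood beside others with no more than a trace. Taking runs of at least 3 members with no more than 5 other protein-coding genes between them, 75 of the 102 genes fell into 15 runs. In the run of 11 genes from Lcp65Ag3 to Cpr65Az, on chromosome 3L, Cpr65Au had a mean signal of 12.58, while 8 of the 11 stayed under 3 on all arrays. The 7 genes from Cpr47Ea to Cpr47Eg held 1 gene with a mean of at least 5, Cpr47Ee. Of the 8 genes from Cpr49Aa to Cpr49Ah, 3 that adjoin each other did so (Cpr49Ae, Cpr49Af and Cpr49Ag), and the other 5 stayed under 3. The longest run, 12 Tweedle genes on chromosome 3R from TwdlM to TwdlQ, stayed under 3 throughout. In the runs from Cpr62Ba to Cpr62Bc and from TwdlT to Cpr97Eb, 2 of 3 genes had a mean of at least 5. Over all 102 members that share was 18.6%, so few bright genes per run do not show that signal is placed by position. These runs are described as the reference places the genes, with no test.

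**Figure D1:**
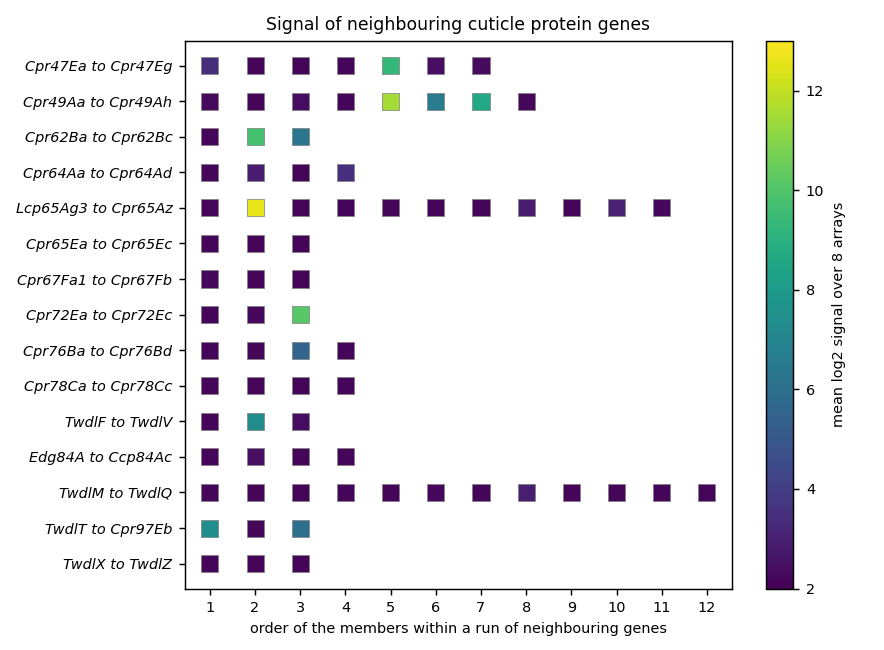
Mean log2 signal over 8 arrays (colour) of cuticle protein genes in 15 runs of neighbouring genes; each square is a gene, placed by its order within its run. In the run from Lcp65Ag3 to Cpr65Az, Cpr65Au at 12.58 stands among dark squares, and all 12 squares of the run from TwdlM to TwdlQ are dark.

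The 19 members with a mean of at least 5 were led by Cpr65Au, Cpr67B, Cpr49Ae and Cpr72Ec. On diapause arrays 1 to 4, Cpr65Au was 12.99, 11.79, 12.84 and 12.44, and on non-diapause arrays 1 to 4 it was 12.43, 13.35, 12.31 and 12.52. The groups overlapped widely, with the lowest value on diapause 2 and the highest on non-diapause 2. Cpr67B was steadier, at 12.25, 12.34, 12.20 and 12.29 on the diapause arrays and 12.08, 12.53, 12.00 and 12.36 on the non-diapause arrays. All 4 diapause values of Cpr67B lay inside the range of the non-diapause values. Cpr72Ec, a protein known from the corneal lens of the fly, was 10.12, 9.98, 10.25 and 10.24 in diapause and 9.84, 10.16, 10.28 and 10.19 in non-diapause heads. Its range over all arrays was 0.44, and its groups overlapped as well. Cpr49Ae was 11.29 to 11.87 and 11.46 to 11.61 in the groups, Cpr62Bb 9.32 to 10.11 and 9.47 to 9.90, and Cpr49Ag 8.35 to 8.90 and 8.22 to 8.81. In Cpr73D the ranges were 7.06 to 7.90 and 7.21 to 7.91, and in Cpr11B 6.85 to 7.78 and 6.90 to 7.90. Each of these 5 genes had overlapping groups and a difference of at most 0.1 in size. The probe set of Cpr66D, also known from the corneal lens, was much dimmer, at 3.25 to 3.97 in diapause and 3.23 to 3.98 in non-diapause heads.

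**Figure D2:**
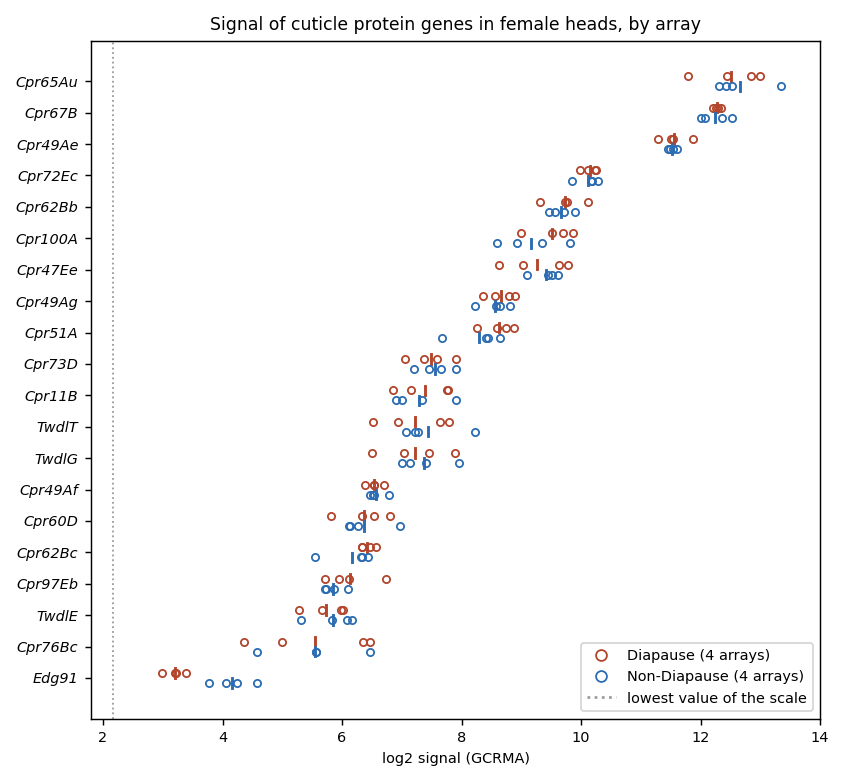
Log2 signal on each array (points) and group mean (bars) of the 19 cuticle protein genes with a mean of at least 5 and of Edg91; the dotted line is the lowest value of the scale, and order by signal is not order by transcript amount. Groups overlap for all 19, while the 4 diapause values of Edg91 (2.99 to 3.38) lie below its 4 non-diapause values (3.77 to 4.58).

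The comparison asked which cuticle genes separate arrested from reproductive females when light, temperature and age are shared. In limma over all 18769 probe sets with Benjamini-Hochberg adjustment, 0 of the 102 members were higher and 0 lower at adjusted p under 0.05, as were 0 of all probe sets (percent called 0 in each direction). At unadjusted p under 0.05, 0 members were higher, against 0.906% of all probe sets, and 1 was lower, against 2.09%. At p under 0.01, the threshold of the study, 0 were higher (0.160% of all probe sets) and 1 was lower (0.607%). These shares are close to the background, and limma-trend gave the same counts of members. However, 76 of the 102 members gave at most a trace of signal, which left little room for a difference. The shares over all members therefore say little about diapause. The median difference over the 102 genes was 0, as it was over all probe sets. Among members that median is set by the 76 with at most a trace, so no conclusion is drawn from it. No member differed by as much as 1 on the log2 scale, while 1.22% of all probe sets were higher and 0.0480% lower by that much. The 5 midgut markers, low on non-diapause 3, were among those higher, with a median difference of 2.76. How much of the 1.22% came from that array was not tested.

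The member that was lower was Edg91, a gene that depends on ecdysone and encodes a glycine-rich protein of the pupal cuticle. Its signal was 2.99, 3.22, 3.38 and 3.20 on diapause arrays 1 to 4 and 3.77, 4.58, 4.24 and 4.06 on non-diapause arrays 1 to 4. The groups did not overlap, which held in this direction for 1.20% of all probe sets and for no other member. Groups apart in the higher direction were seen for 0 members and 0.405% of all probe sets. Diapause heads averaged 3.20 ± 0.16 and non-diapause heads 4.16 ± 0.34 (SD, n = 4 each), a log2 difference of -0.97 ± 0.18 (SE) or 1.95-fold. The unadjusted p was under 0.01, and the limma adjusted p = 0.862. Its 95% interval was -1.41 to -0.52. All 8 values lay in the low part of the scale. In whole heads, fewer cells that express a gene and less RNA per cell cannot be told apart. Without non-diapause 3 the log2 difference was -0.94, and without diapause 3 and non-diapause 3 together it was -1.0, with p no longer under 0.01.

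**Figure D3:**
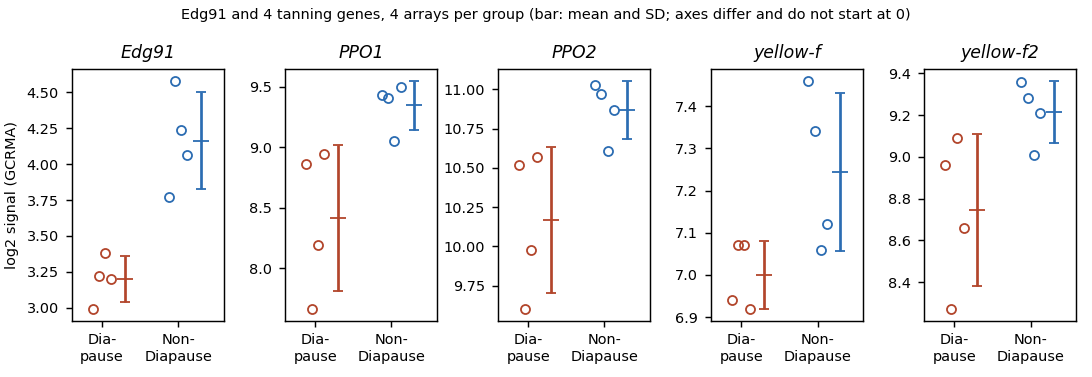
Log2 signal on each array (points, 4 per group) with mean and SD (bars) of Edg91 and of the tanning genes PPO1, PPO2, yellow-f and yellow-f2; each panel has its own axis, which does not start at 0. Groups do not overlap for Edg91 (at most 3.38 against at least 3.77) and PPO1 (at most 8.94 against at least 9.05), and do for yellow-f.

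Among the 19 members with a mean of at least 5, 10 were higher and 7 lower in diapause heads by more than 0.01, against 48.1% and 45.3% of all probe sets of that brightness, and their median difference was 0.02 against 0.00. None of the 19 had groups that did not overlap, against 0.834% of these probe sets in the higher and 2.59% in the lower direction. The smallest exact permutation p among them was 0.171, for Cpr62Bc. Differences ran from -0.22 for TwdlT to 0.35 for Cpr100A. Cpr100A measured 9.70, 9.0, 9.87 and 9.51 in diapause and 8.92, 9.81, 8.60 and 9.34 in non-diapause females. The difference (0.35, 95% interval -0.41 to 1.11) was 0.16 without non-diapause 3, on which Cpr100A was lowest. Cpr51A, at 8.26, 8.60, 8.88 and 8.75 against 8.65, 8.44, 7.68 and 8.41, was lowest on the same array, and its difference of 0.33 (-0.26 to 0.92) fell to 0.12 without it. Leaving out diapause 3 and non-diapause 3 together brought both genes to 0.04.

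Smaller differences in the same direction were those of Cpr97Eb (0.28) and Cpr62Bc (0.27). Cpr62Bc was 6.33 to 6.56 in diapause heads and 5.54, 6.32, 6.43 and 6.34 on non-diapause 1 to 4, so that the distance between groups came from non-diapause 1. All 3 Tweedle genes with a mean of at least 5 were lower on average in diapause, by -0.22 for TwdlT, -0.15 for TwdlG and -0.12 for TwdlE, and each interval included 0. Their sign depended on single arrays. Without non-diapause 3 the differences of TwdlG and TwdlE were 0.04 and -0.03, and without diapause 3 they were 0.09 and 0.04. TwdlT was 0.01 without diapause 2, 0.03 without non-diapause 2 and 0.06 with array weights. On the single arrays, TwdlT was 6.51 to 7.79 in diapause and 7.07 to 8.22 in non-diapause heads, and TwdlG was 6.5 to 7.89 and 7.0 to 7.95. The groups of both overlapped over most of their range.

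The intervals show what these arrays could have told apart. The 95% interval included 0 for all 19 members, lay within 1 on the log2 scale to either side for 15, and within 0.5 for 4. It reached beyond 1 for Cpr100A, TwdlT, TwdlG and Cpr76Bc, so a 2-fold difference of these genes could not be told from none. The widest was that of Cpr76Bc, from -1.52 to 1.52 around a difference of 0. For Cpr49Af (6.54 ± 0.13 in diapause, 6.57 ± 0.14 in non-diapause) it was -0.26 to 0.19.

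**Figure D4:**
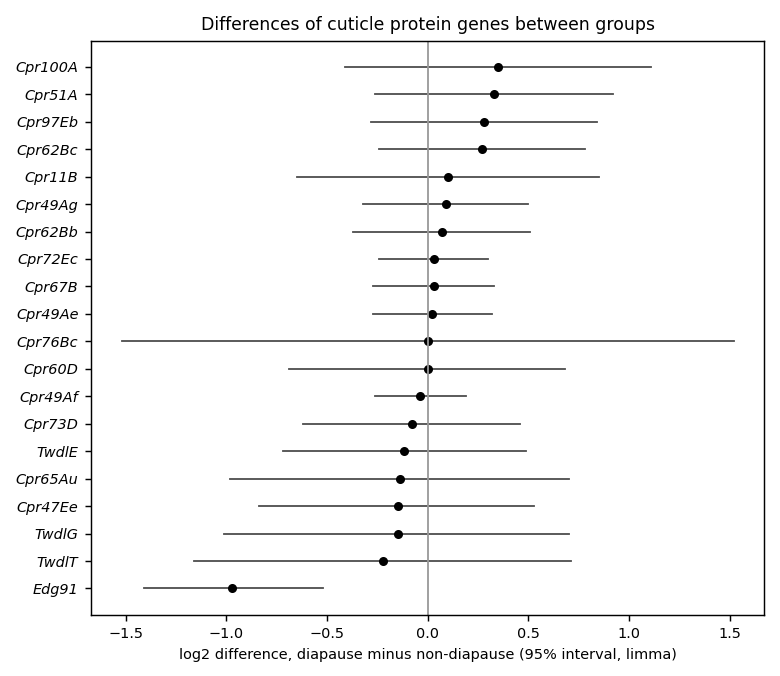
Log2 difference, diapause minus non-diapause (points), with 95% interval from limma (lines) for the 19 cuticle protein genes with a mean of at least 5 and for Edg91, 4 arrays per group. The interval of Edg91 (-1.41 to -0.52) is the 1 that leaves out 0, and that of Cpr76Bc (-1.52 to 1.52) is the widest.

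Arrays of the same group varied more in the bright members than in other bright probe sets. The median SD within groups was 0.35 for the 19 members and 0.18 for all probe sets as bright as these (mean of 5 or more), and 16 of the 19 were above that value. The SD ran from 0.14 for Cpr49Af to 0.91 for Cpr76Bc. Cpr76Bc was 6.47, 4.35, 6.35 and 5.0 on diapause 1 to 4 and 5.56, 6.47, 4.58 and 5.57 on non-diapause 1 to 4. Its highest values were on diapause 1, diapause 3 and non-diapause 2, and its lowest on diapause 2 and non-diapause 3. Cpr47Ee was 9.78, 8.63, 9.63 and 9.02 in diapause and 9.52, 9.62, 9.09 and 9.45 in non-diapause heads. Cpr60D was 6.8, 5.81, 6.54 and 6.33 against 6.13, 6.97, 6.12 and 6.27. Both genes had the same arrays at the bottom of each group as Cpr76Bc, namely diapause 2 and non-diapause 3. For Cpr60D, however, non-diapause 1 (6.13) was almost as low as non-diapause 3 (6.12).

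A related order of arrays, low on diapause 2 and high on non-diapause 2 within the groups, was shared by much of the bright family. Of the 19 members, 10 had their lowest diapause value on diapause 2, against 33.1% of probe sets of that brightness, and 12 had their highest non-diapause value on non-diapause 2, against 23.4%. Both held for 9 members (13.6% of all such probe sets), namely Cpr65Au, Cpr62Bb, Cpr100A, Cpr47Ee, Cpr11B, TwdlT, Cpr60D, Cpr97Eb and Cpr76Bc. The reverse, highest on diapause 2 and lowest on non-diapause 2, held for 0 members and for 14.1% of all such probe sets. Not every gene took part. TwdlG was highest on diapause 2 (7.89) and non-diapause 3 (7.95) within its groups, and Cpr49Ae was lowest on diapause 1. Over the 19 members the mean signal was 8.08 on diapause 2 and 8.58 on non-diapause 2, and the group means were 8.33 and 8.30. The pattern was chosen after the values were seen and is a description of these arrays.

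**Figure D5:**
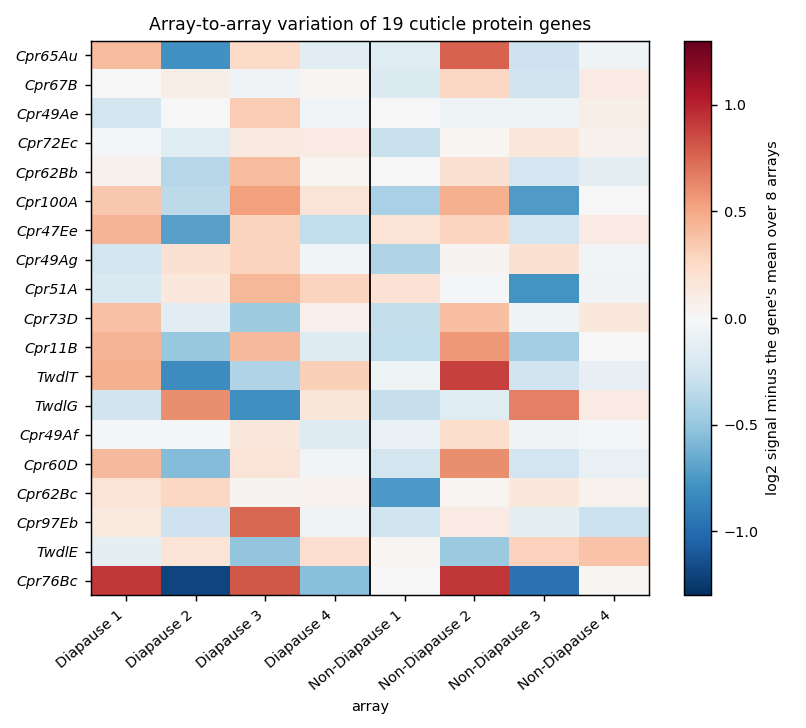
Log2 signal of the 19 cuticle protein genes with a mean of at least 5, on each array, minus the mean of the gene over 8 arrays (colour); the black line separates the groups. Most rows are blue on diapause 2 and red on non-diapause 2, and 9 of the 19 have their lowest diapause value on the former and their highest non-diapause value on the latter.

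Some other genes of cuticle formation shared the order, and neuronal markers had the reverse, against 13.6% and 14.1% of all bright probe sets (mean of 5 or more). All 4 obstructor genes with a mean of at least 5 (obst-A, obst-B, obst-E and Gasp), which encode secreted chitin-binding proteins, were lowest on diapause 2 and highest on non-diapause 2 within their groups. The same held for 4 of 13 chitin genes, among them the deacetylase genes serp and verm of the tracheal cuticle, and for 5 of 15 tanning genes, among them the pigment genes e, yellow-b and yellow-e. It held for 0 of the 12 moult-timing factors and 0 of the 3 epidermal factors of that brightness, and the moult-timing factors ftz-f1 and Blimp-1 and the chitin deacetylase-family gene Cda5 had the reverse. obst-B was 6.54, 4.88, 7.14 and 5.87 in diapause and 6.32, 6.62, 5.64 and 5.96 in non-diapause heads. All 4 neuronal markers measured (elav, nSyb, brp and para) were highest on diapause 2 and lowest on non-diapause 2. They averaged 8.20 on diapause 2, against 7.15 to 7.88 on the other diapause arrays, and 6.92 on non-diapause 2 against 7.43 to 7.98 on the other non-diapause arrays. pros and ct, markers of the cone cells of the eye that neurons express too, ran the same way as the neuronal markers. sv, a dimmer marker of the same list, was highest on diapause 2 (5.27) but lowest on non-diapause 1 (4.33) within its groups. Of the 5 other structural cuticle and lens proteins of that brightness, 2 had the order of the cuticle genes. They were pio and the corneal lens protein retinin (13.54 on diapause 2, 13.81 on non-diapause 2). The part of any cell type in the order of the cuticle genes was not tested.

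In the wider cuticle pathway, lists were read by counts. Of the 24 measured genes of chitin synthesis, assembly and turnover, 1 was higher at p under 0.05 (0.906% of all probe sets) and 0 lower (2.09%), with a median difference of 0.08. It was Gfat2, an enzyme that feeds amino sugars into chitin synthesis, at 9.74, 9.86, 9.78 and 9.88 in diapause and 9.69, 9.64, 9.62 and 9.73 in non-diapause females (log2 difference 0.15, 95% interval 0.05 to 0.25, limma adjusted p = 1). After median centring its difference was 0.09 and no longer passed p under 0.05. kkv, the epidermal chitin synthase, was at the floor on all arrays. None of the 9 obstructor genes, the 14 other structural cuticle and lens proteins, the 14 moult-timing factors or the 5 hormone and receptor genes of cuticle hardening had p under 0.05. retinin, a protein of the corneal lens, was 13.54 to 14.11 in diapause and 13.45 to 13.81 in non-diapause heads. resilin, which encodes an elastic cuticle protein, stayed at 2.20. Of the 5 epidermal factors, grh, a regulator of epidermal barrier genes, was the 1 with p under 0.05 (0.906% of all probe sets higher), at 9.28 ± 0.10 in diapause against 8.91 ± 0.29 (log2 difference 0.37, 95% interval 0.01 to 0.74, limma adjusted p = 1). That call of grh was lost with array weights, in 7 of 8 fits without 1 array, and when its probe sets were averaged, where the difference was 0.18. ovo, which shapes epidermal hairs, was 7.76 to 8.09 in diapause and 7.32 to 8.14 in non-diapause heads.

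Of the 21 measured genes of the tanning and pigment list, 4 were lower at p under 0.05 (2.09% of all probe sets) and 0 were higher (0.906%), with a median difference of 0. PPO1 and PPO2 encode prophenoloxidases that blood cells release for melanin formation. PPO1 was 8.86, 7.66, 8.19 and 8.94 in diapause and 9.43, 9.41, 9.05 and 9.50 in non-diapause females (log2 difference -0.94, 95% interval -1.68 to -0.19, limma adjusted p = 1). PPO2 was 10.52, 9.60, 9.98 and 10.57 in diapause and 11.03, 10.97, 10.61 and 10.87 in non-diapause heads (-0.70, -1.29 to -0.11, limma adjusted p = 1). Neither gene had groups that overlapped, as for 2.59% of probe sets with a mean of 5 or more in this direction, and the lowest value of both was on diapause 2. yellow-f and yellow-f2, enzymes of the melanin pathway, were lower by smaller amounts, with log2 differences of -0.24 and -0.47, and both had groups that overlapped. The count of 4 was not stable: it was 2 without diapause 2 or diapause 4, 1 without diapause 3 or non-diapause 4, and 0 without non-diapause 1 or non-diapause 2. ple and Ddc, which make dopamine for hardening and colouring the cuticle, were at 6.96 ± 0.29 against 6.67 ± 0.31 and 10.94 ± 0.28 against 10.80 ± 0.33. y, the yellow gene itself, was at the floor.

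Markers of the fat body moved with the groups in the same direction as Edg91 and the 4 tanning genes above. All 6 (Yp1, Yp2, Yp3, Lsp2, apolpp and fit) were lower in diapause at p under 0.05 (2.09% of all probe sets). Their list mean was 14.63 to 14.86 on the diapause and 14.94 to 15.24 on the non-diapause arrays. The shift was uneven, with log2 differences from -0.07 for Yp1 and -0.10 for apolpp to -0.84 for fit. The study describes the making of yolk proteins in the fat body as inhibited during diapause. Fat body content and reproductive state therefore cannot be told apart in the yolk protein markers. Muscle markers had a list mean of 11.56 to 11.81 and 11.26 to 11.58. The part of either in the differences of Edg91 and these 4 genes was not tested.

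A further 7 probe sets named a cuticle gene together with another gene and were left out of the counts. Of these, 4 stayed under 3 on all arrays. The probe set of Acp1 and CG31904 averaged 9.35 in diapause against 8.81 (log2 difference 0.53). A probe set of Cpr57A and Obp57d averaged 8.56 against 8.82 (log2 difference -0.26). Neither of these probe sets had p under 0.05. Another probe set of Cpr57A and Obp57d, among the 4 under 3, was 2.19 to 2.44. Which of the genes gave the signal cannot be told. The probe set of Lcp65Ag1 and Lcp65Ag2 was 2.94 to 4.07.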

How the data were processed

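Total RNA of heads was labelled with biotin from 6 µg and hybridised to Affymetrix Drosophila Genome 2.0 arrays. The authors deposited log2 values, 1 per probe set and array, made with GCRMA per the submitters' processing notes (GCRMA version: not given in the sources used here). The method corrects background, normalizes by quantiles and summarises probes. No further normalization was applied. Number of arrays limits precision.

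Genes were named from the platform annotation. All 102 members matched a Drosophila reference table (Release 6), which was used for names and gene order. A gene was represented by the probe set of highest mean. After 183 control probe sets of 18952 were left out, limma 3.58.1 (R 4.3.3, moderated 2-sided test) compared 4 with 4 arrays, with Benjamini-Hochberg adjustment over 18769 probe sets and a threshold of 0.05. The step was tested on simulated data. Proteins of members were not analysed here.

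Members and lists were chosen with earlier results of these data known. Named were the 12 members of highest mean, members at p under 0.05, the 5 largest differences each way with a group mean of at least 5, the brightest of each family, the Edg and Acp genes, and up to 4 genes per list at p under 0.05. A rule for members with 1 array apart by at least 2 added none. The other members with a mean of at least 5, the neighbours, genes of array patterns and further list genes were named once their values were known. Alternatives were a replicate block, a filter at a mean of 4, limma-trend, a second quantile normalization, median centring, array weights, averaging the probe sets of each gene, and each array left out. The fit without diapause 3 and non-diapause 3, and all alternatives for lists, were added after seeing the data.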

Additional observations from a re-analysis of the deposited data

Results flagged for a closer look

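Of 56 groups of 4 arrays examined for the named genes, 2 held an array that stood apart from the other 3 by Dixon's ratio at the 95% level, where chance gives about 1 in 20. Non-diapause 1 gave 5.54 for Cpr62Bc, where its group otherwise ran from 6.32 to 6.43. Non-diapause 2 gave 3.10 for Lcp65Ac, where its group otherwise ran from 2.80 to 2.83, close to the floor.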

How the results depend on the processing

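Over 16 alternatives, no member passed the adjusted threshold, and the smallest adjusted p among Edg91 and the 19 members with a mean of at least 5 was 0.28. Edg91 stayed lower wherever it was tested (-1.11 to -0.83, p from 0.000332 to 0.0118). The count of members lower at p under 0.01 was 0 with a filter at a mean of 4, which removes Edg91, and 0 without diapause 3 and non-diapause 3, a fit added after seeing the data. At p under 0.05 the lower count was 0 with that filter, and 2 after the second quantile normalization, after median centring and with array weights. The higher count was 1 after the second quantile normalization. The count lower by at least 1 on the log2 scale was 1 (Edg91) after quantile normalization, after centring and without diapause 3 and non-diapause 3. Over fits without 1 array it was 0 to 1, being 1 without diapause 3 or non-diapause 1. The tanning count was 0 to 4 over fits without 1 array, and 2 without diapause 3 and non-diapause 3. The replicate numbers are shared by the groups, and the deviations of same-numbered arrays gave negative r in each case (r = -0.31, -0.66, -0.37 and -0.02). Pairs with different numbers gave r from -0.42 to 0.44. Deviations cancel among the arrays of a group, so these r values are not independent of each other. Whether same-numbered arrays had a culture or batch in common was not tested. With the replicate number as a block, 1 member was lower at p under 0.05 (Edg91) the tanning count was 2, and grh was no longer under 0.05. Of the 19 members, 4 (Cpr100A, Cpr51A, Cpr97Eb and Cpr62Bc) kept their sign in all alternatives, 13 turned in at least 1, and 2 had a difference of 0. The causes were not tested.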

Other observations

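Chitin genes with low values on non-diapause 3 were named after their values were seen. Cht8, a chitinase-family gene, read 3.26 on non-diapause 3, against 8.19 to 10.64 elsewhere, and Cht4 was 4.50 there and 5.36 to 7.74 elsewhere. The midgut markers were low on the same array, with a mean of 2.65 against 12.28 to 14.0. Chs2, the chitin synthase of the gut, was 3.97, 4.37, 2.69 and 2.63 on non-diapause 1 to 4 and 3.88 to 6.05 on the diapause arrays, so that the groups overlapped. dpy, a giant protein of the apical extracellular matrix, was 7.14 on non-diapause 2, 7.24 on non-diapause 3 and 9.10 on each of the other non-diapause arrays, and 8.82 to 9.75 in diapause heads.

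Among the 19 members with a mean under 5 that varied by more than 0.1 over the arrays, 7 were highest on non-diapause 3, against 19.8% of all such probe sets. They were Cpr66D, Cpr64Ad, Cpr30F, TwdlV, Cpr47Eg, TwdlK and Cpr50Cb. Cpr64Ad was 3.98 on that array, against 3.39 to 3.49 elsewhere, and TwdlV was 2.59 against 2.33 to 2.38. These values are near the floor.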
